A study of Mus musculus with 3 samples.

Results

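The voltage-gated calcium channel genes were examined in a list of 65709 H3K4me1 enriched regions from mouse pancreatic islets. The 9 genes were the pore-forming subunit genes Cacna1a, Cacna1b, Cacna1c, Cacna1d, Cacna1e, Cacna1g and Cacna1h, the β subunit gene Cacnb2 and the α2δ subunit gene Cacna2d1. A region was counted for a gene where it overlapped the GENCODE M1 annotation of the gene or lay within 20 kb of any of its annotated transcription start sites (TSS). By this rule 196 regions, or 0.298% of the list, were found at the 9 genes. All 9 are among the 22350 annotated protein-coding genes of chromosomes 1 to 19 and X, and among the 4837 of these that span at least 50 kb, called long genes here.

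The islets came from mice labelled CD1 (ICR in the study's methods), aged 8 to 12 weeks by the label (a narrower range in the study's methods), with no transgene or deletion named. They were cultured for 4 days with TNFα at 0.16 ng/ml, IL-1β at 0.25 ng/ml and IFNγ at 1.6 ng/ml, and the DNA of 4 ChIP experiments was pooled into 1 library. Islets of several mice were pooled too, so the list gives no spread between animals. Chromatin carrying H3K4me1 was recovered with an antibody and sequenced, and the list holds the position of each enriched region with no height, count or score. Untreated islets were not analysed here, so no value below is an effect of the cytokines. No difference was tested across replicates, and the intervals given cover counting error alone.

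Voltage-gated calcium channels open when the cell membrane depolarises. In the insulin-producing β-cell, glucose metabolism closes ATP-sensitive potassium channels, the membrane depolarises, calcium enters through these channels and insulin granules fuse with the membrane. A channel has a pore-forming α1 subunit, which sets the current type (L, P/Q, N, R or T), with a β subunit on the inner face of the membrane and an α2δ subunit on the outer face. H3K4me1, monomethylation of lysine 4 of histone H3, marks enhancers in an active or poised state, and at many active promoters it lies beside the start while the start itself carries trimethylation.

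An islet sample holds several cell types besides β-cells. A region lay within 2 kb of a start site of 7 of 8 β-cell marker genes, 2 of 5 α- and δ-cell markers, 0 of 5 acinar markers, 3 of 3 duct markers, 1 of 6 leukocyte markers and 4 of 5 endothelial and stromal markers. The neuron and glia markers were marked as well, at 4 of 4 annotated genes. Of all protein-coding genes, 62.0% had a region within 2 kb of a start site. Which cell type carried the regions at the channel genes was not tested, although several channel genes are also active in neurons, endocrine cells other than β-cells and muscle.

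All 9 genes had at least 1 region, as did 91.4% of long genes and 76.4% of all protein-coding genes, and the number and covered length of the regions differed widely among the 9. The 2 L-type pore genes were the most covered, with 40.6% of Cacna1c and 26.9% of Cacna1d lying within H3K4me1 regions, and Cacnb2 followed with 23.5%. The N-type and R-type pore genes were the least covered, at 2.31% of Cacna1b and 1.93% of Cacna1e. Cacna1a, Cacna1g, Cacna1h and Cacna2d1 lay between, at 10.1%, 13.6%, 7.61% and 10.9%. Over the summed length of the 9 genes 20.2% was covered, against 8.56% over the summed length of the long genes. The median over the 9 genes was 10.9%, and the median over long genes was 5.23%, with quartiles of 1.61% and 14.1%. At least 20% was covered in 3 of the 9 genes and in 17.1% of long genes.

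**Figure D1:**
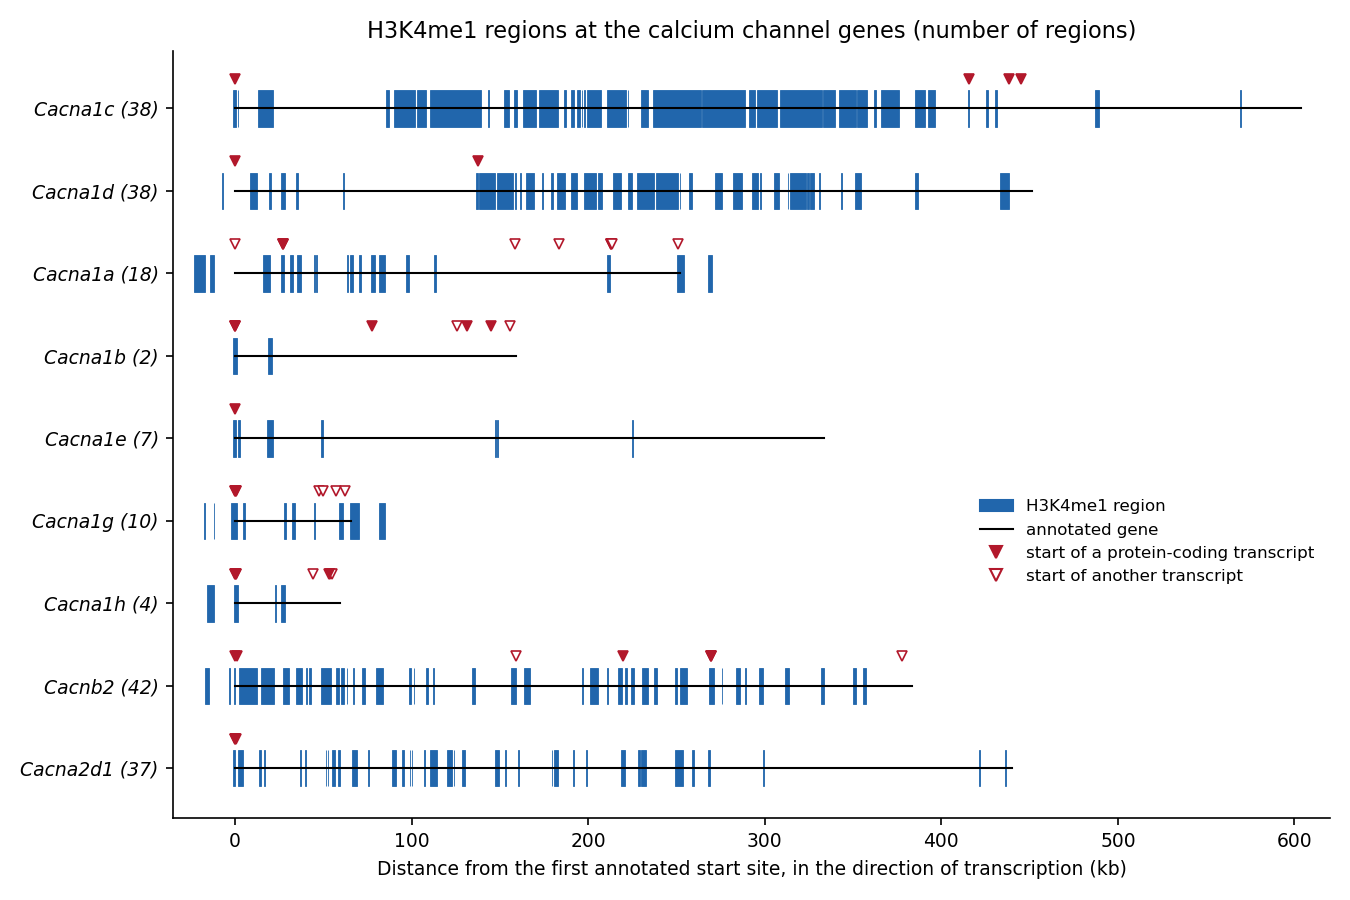
Position of every H3K4me1 region (blue) counted for each of the 9 calcium channel genes, drawn against distance in kb from the first annotated start site in the direction of transcription, with the gene as a black line, starts of protein-coding transcripts as filled triangles and other starts as open triangles. Regions fill much of the upstream part of Cacna1c and the middle of Cacna1d, whereas Cacna1b has 2 regions, both within 20 kb of its start or over it.

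Per 100 kb of gene, the number of regions ran from 1.26 in Cacna1b to 15.2 in Cacna1g. In descending order, Cacna1g had 15.2 regions per 100 kb, Cacnb2 10.9, Cacna1d 8.42, Cacna2d1 8.41, Cacna1a 7.15, Cacna1h 6.72, Cacna1c 6.29, Cacna1e 2.10 and Cacna1b 1.26. The 95% Poisson intervals of neighbours in this order overlapped in 7 of 8 pairs. The exception was the step from Cacna1c, with an interval of 4.45 to 8.64, to Cacna1e, with an interval of 0.844 to 4.33. The median of the 9 genes was 7.15 regions per 100 kb, against 4.64 for long genes, and 7 of the 9 lay above that value, which by construction splits long genes evenly.

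Density by this rule was lower in long genes, with a median of 4.64 regions per 100 kb against 8.95 over all protein-coding genes. By covered length the medians were 5.23% over long genes and 4.76% over all protein-coding genes. The rule counts regions in the flanks but divides by gene length alone, which raises the density of short genes. Each gene was therefore also set beside protein-coding genes within 1.5 times its own length. The intervals of Cacna1c, Cacna1d, Cacna1a, Cacna1g, Cacnb2 and Cacna2d1 lay above the median of their peers, and those of Cacna1b, Cacna1e and Cacna1h included it. By covered length, Cacna1c stood at the 99.2 percentile of 252 peers, Cacna1d at 95.9 of 412 and Cacnb2 at 92.9 of 539. Cacna1g had the highest density per 100 kb of gene but was at the 69.9 percentile of 3014 peers by covered length. Per 100 kb of searched sequence, flanks included, Cacna1g had 9.76 regions and came after Cacnb2 with 10.1, and Cacna1h had 4.22. When regions were given to the gene with the closest start within 100 kb, the step from Cacna1c to Cacna1e was lost. Among the regions counted above, Cacna1c then kept 1.16 per 100 kb (0.466 to 2.39) and Cacna1e 1.20 (0.327 to 3.07), with intervals that overlapped, and 3 further regions outside the 196 brought Cacna1e to 2.10. Cacna2d1 kept 1.14 (0.369 to 2.65) and Cacna1b 1.26 (0.152 to 4.54). The order of the genes therefore depended on whether regions were counted or their length was summed, on whether the flanks entered the length and on how regions were assigned.

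**Figure D2:**
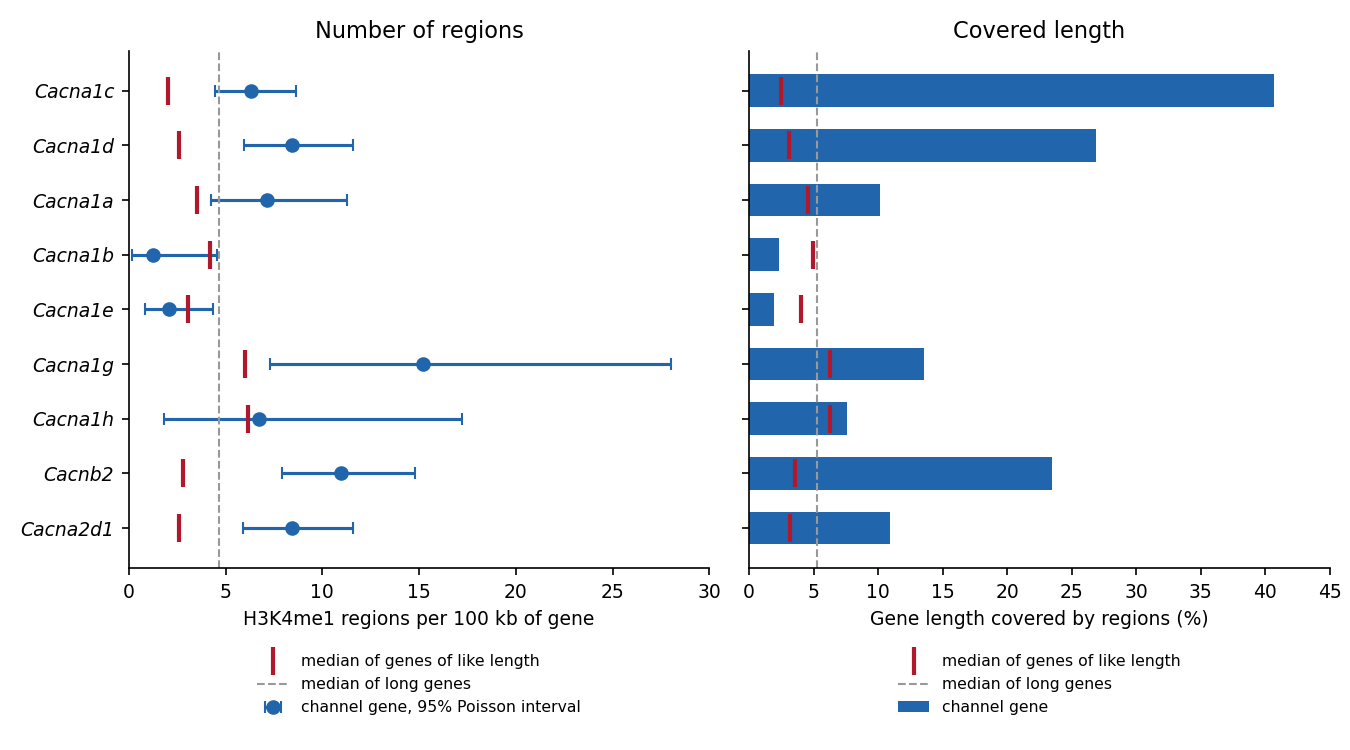
Left, H3K4me1 regions per 100 kb of gene (points) with exact 95% Poisson intervals; right, percent of the gene covered by regions (bars). Red ticks are the medians of protein-coding genes of like length and the dashed lines the medians of all long genes, 4.64 regions per 100 kb and 5.23%; Cacna1b and Cacna1e lie below both.

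The regions at the channel genes were wider than those of the list at large, with a median of 1800 bp against 1200 bp over the list and 1400 bp over regions inside long genes. A width above 10 kb was seen in 10 of the 196, or 5.10% (95% binomial interval 2.47 to 9.18), compared with 2.01% of the list and 2.80% of the regions inside long genes. Of these 10, 8 were in Cacna1c, 1 in Cacna1d and 1 in Cacnb2. By gene, the median width was 3400 bp in Cacna1c, 2000 bp in Cacna1d, 1900 bp in Cacna1a, 1800 bp in Cacnb2, 1000 bp in Cacna2d1 and 800 bp in Cacna1e. Cacnb2 and Cacna2d1 thus had 42 and 37 regions in genes of 384 and 440 kb, but those of Cacna2d1 were narrower and summed to 49.4 kb against 93.8 kb.

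**Figure D3:**
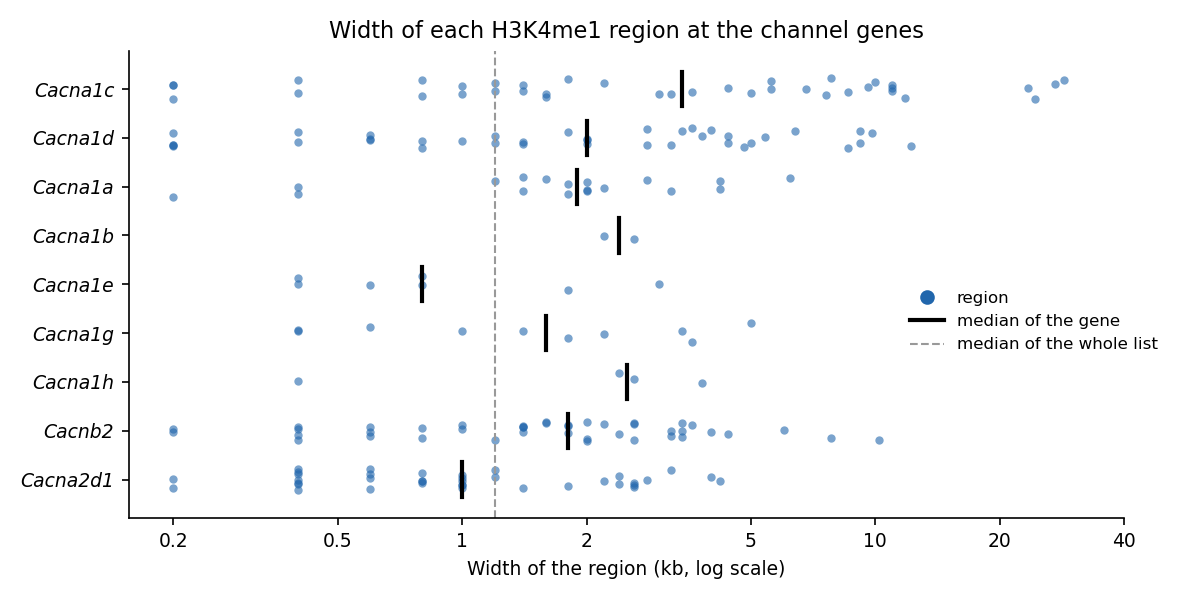
Width in kb, on a log scale, of each of the 196 regions (points, spread vertically for clarity) by gene, with the median of each gene (black bar) and of the whole list (dashed line, 1.2 kb). The points beyond 20 kb are all in Cacna1c.

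Of the 196 regions, 177 were inside a gene, 7 crossed its edge, 10 were upstream and 2 downstream. Regions that touched introns and no exon numbered 160, or 81.6% (75.5 to 86.8), beside 22063 of 32929 (67%) for the regions counted by the same rule at long genes. The share of sequence that is intron was not matched between the sets. From the midpoint of the region to the nearest start site of its own gene, 16 regions were within 2 kb (8.16%), 47 between 2 and 20 kb (24.0%), 71 between 20 and 100 kb (36.2%) and 62 beyond 100 kb (31.6%). These distances were not counted at long genes, whose median length was 98.9 kb against 333 kb for the 9 genes. Of the 178 midpoints inside the genes, 115 (64.6%) lay before the middle of the gene, beside 60.2% at long genes.

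Cacna1c encodes the L-type α1C pore, which carries a large share of the calcium current of mouse β-cells and is also the L-type pore of heart and smooth muscle. The gene lies at chr6:118542314-119146249 on the minus strand (mm9) and spans 604 kb. It had 38 regions, which covered 245 kb. From chr6:118749601 to chr6:119060600, a stretch of 311 kb within introns 1 to 3 held 30 regions with gaps below 10 kb, and 74.2% of it was covered. The widest region, chr6:119007201-119035800, spanned 28.6 kb and lay mostly in intron 1 and reached over exon 2. Other wide regions were chr6:118882601-118909800 at 27.2 kb, chr6:118857401-118881800 at 24.4 kb and chr6:118814001-118837400 at 23.4 kb, all intronic.

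The cover of Cacna1c was not even along the gene. In the 5 equal parts of its length from the start, 31.1%, 62.4%, 88.2%, 19.3% and 2.15% were covered. The mean over long genes fell steadily along the same parts, from 18.7% in the first to 5.45% in the last. Intron 3 of the transcript Cacna1c-204, the longest at 272 kb, makes up 45.1% of the gene and held 26 regions and 75.1% of its covered length. Of this intron 67.7% was covered, and of the 139 kb intron 1 39.96%, whereas the 21.5 kb intron 9 held no region. The last 159 kb of the gene, which hold most of its exons, had 2 regions and 1.63% cover.

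The annotation gives Cacna1c 4 starts. The first was covered by the 1.6 kb region chr6:119145801-119147400. It lies inside Dcp1b, a decapping factor gene on the opposite strand at chr6:119125270-119171632, so regions there belong to the sequence of both genes. The second start, 416 kb further on, is the first base of exon 4 of Cacna1c-204, with a region 59 bp upstream of it. The other 2, at 438 and 445 kb, had their nearest region 6809 and 13382 bp away.

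Cacna1d encodes the L-type α1D pore, which opens at more negative voltages than α1C and is expressed in neuroendocrine cells, the inner ear and the sinoatrial node. It lies at chr14:30853135-31304342 on the minus strand and spans 451 kb. It had 38 regions, which covered 121 kb, and their density was 8.42 per 100 kb (5.96 to 11.6). It has 2 annotated starts, and neither was covered by a region.

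Cover in Cacna1d was higher after its second start than before it. Between the first start and the second, 138 kb apart, 6 regions covered 6.83% of the sequence. From the second start to the end of the gene, 31 regions covered 35.7% of 314 kb. A stretch of 122 kb around and after the second start, chr14:31045801-31167800, held 18 regions and was 59.2% covered. Its widest region, chr14:31053601-31065800, spanned 12.2 kb. Intron 3 of Cacna1d-203, again the longest at 150 kb, held 18 regions and 62.9% of the covered length of the gene, and 50.9% of it was covered. In both L-type genes intron 3 was thus the longest intron and the one with most of the covered sequence. Intron 3 was also the longest, and held more covered sequence than any other intron, in Cacna1a, Cacna1b and Cacna2d1.

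The 2 starts of Cacna1d also differ in base composition. The 250 bases before each start are printed to show this difference, 5′ to 3′ on the minus strand of mm9, with CG dinucleotides in capitals.
Cacna1d first start, chr14:31304343-31304592: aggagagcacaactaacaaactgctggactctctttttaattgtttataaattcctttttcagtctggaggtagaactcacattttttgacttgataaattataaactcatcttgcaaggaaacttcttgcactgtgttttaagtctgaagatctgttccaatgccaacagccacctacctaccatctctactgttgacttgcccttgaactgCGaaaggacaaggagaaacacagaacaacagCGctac
Cacna1d second start, chr14:31166673-31166922: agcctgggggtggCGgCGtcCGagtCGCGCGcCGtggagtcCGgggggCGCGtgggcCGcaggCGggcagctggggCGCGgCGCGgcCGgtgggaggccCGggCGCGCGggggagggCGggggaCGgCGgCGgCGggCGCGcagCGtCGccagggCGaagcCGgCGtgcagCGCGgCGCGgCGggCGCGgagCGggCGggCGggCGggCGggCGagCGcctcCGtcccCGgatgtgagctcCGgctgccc

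The sequence before the second start was 86.4% G and C with 50 CG dinucleotides, and that before the first start was 39.6% G and C with 2. The second start fell in an unmarked gap of 800 bp, chr14:31166001-31166800, with a 1.0 kb region 129 bp upstream and an 8.6 kb region 672 bp downstream. The first start fell in an unmarked stretch of 15.2 kb. Like that of Cacna1c, it lies inside a decapping factor gene on the opposite strand, Dcp1a at chr14:31292751-31340242.

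Cacna1a encodes the P/Q-type α1A pore, which drives transmitter release at many synapses and has been described in β-cells. The gene spans chr8:86912339-87164145 on the plus strand, a length of 252 kb. It had 18 regions, 7.15 per 100 kb (4.24 to 11.3). The starts of its protein-coding transcripts lie 26.9 kb into the annotated gene and were covered by the 1.8 kb region chr8:86938201-86940000. A run of 6 regions, chr8:86928001-86958600, surrounded them. The widest region, chr8:86889201-86895400 at 6.2 kb, was centred 20.04 kb upstream of the annotated gene. The first 2 of 5 equal parts were 20.7% and 20.3% covered, and the third and the fourth 2.78% and 0%. A stretch of 96.8 kb, chr8:87026201-87123000, had no region.

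Cacna1b encodes the N-type α1B pore, a channel of presynaptic terminals. Its locus is chr2:24459407-24618672 on the minus strand, 159 kb in length. It had 2 regions, which gives 1.26 per 100 kb (0.152 to 4.54). The 2.2 kb region chr2:24617601-24619800 covered the 3 sites of its main start, and the 2.6 kb region chr2:24597601-24600200 was centred 19.8 kb into the gene. The last 138 kb, or 86.8% of the gene, had no region, and 5 further annotated starts lie there.

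Cacna1e encodes the R-type α1E pore, which mouse β-cells and δ-cells have been described to use. It is found at chr1:156239649-156573049 on the minus strand, spans 333 kb and has 1 annotated start. It had 7 regions, 2.10 per 100 kb (0.844 to 4.33). The 1.8 kb region chr1:156572601-156574400 covered the start, a 0.6 kb region was centred 2.15 kb into the gene and the widest, chr1:156551801-156554800 at 3.0 kb, 19.7 kb in. Introns 3, 6 and 7, of 64.5, 71.7 and 68.3 kb, were each covered by between 1.12% and 1.24%.

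The longest intron of the reference transcript held more covered sequence than any other intron in 7 of the 9 genes, beside 62.0% of the 4274 long genes with a covered intron. The exceptions were Cacna1e, where the 24.3 kb intron 1 held 3.78 kb of covered sequence and the longest, intron 6, 0.8 kb, and Cacna1g, where intron 32 held 2.2 kb and the longest, intron 9, 1.0 kb.

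Cacna1g encodes the T-type α1G pore, which opens at low voltage. The locus lies at chr11:94269705-94335414 on the minus strand and, at 65.7 kb, is among the shorter of the 9. It had 10 regions, 15.2 per 100 kb (7.30 to 28.0), of which 3 lay outside the gene. The 3.6 kb region chr11:94334201-94337800 covered all 4 sites of its main start, and the 5.0 kb region chr11:94265401-94270400, the widest, crossed the other end of the gene. Of the regions outside the gene, 1 overlapped Abcc3, 1 Spata20 and 1 Epn3.

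Cacna1h encodes the T-type α1H pore. Its annotation lies at chr17:25511230-25570728 on the minus strand and spans 59.5 kb. It had 4 regions, 6.72 per 100 kb (1.83 to 17.2), 3 of them in or across the gene. The 2.4 kb region chr17:25569201-25571600 covered the 4 sites of its main start. The widest, chr17:25582801-25586600 at 3.8 kb, was centred 14.0 kb upstream. The last 31.2 kb, or 52.4% of the gene, had no region, and 4 further annotated starts lie there. The T-type genes hence shared a covered main start but differed in the number of regions, with intervals that overlapped.

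Cacnb2 encodes the β2 subunit, which binds the pore from inside the cell and brings it to the membrane. The annotated gene lies at chr2:14525933-14909535 on the plus strand and spans 384 kb. It had 42 regions, the most of the 9 genes, or 10.9 per 100 kb (7.89 to 14.8). They were spread along the gene in 11 runs separated by gaps of over 10 kb, and the longest unmarked stretch was 29.0 kb. The first of the 5 equal parts was 49.8% covered, and the widest region, chr2:14528201-14538400 at 10.2 kb, began 1458 bp downstream of the sites of the first start. Intron 2, at 260 kb, held 30 regions and was 26.3% covered.

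Protein-coding transcripts of Cacnb2 begin at 3 places, and these differed. The first start lay in an unmarked gap of 2.4 kb, with a region 133 bp upstream. The second, 220 kb into the gene, lay in a gap of 1.8 kb with regions 919 bp upstream and 882 bp downstream. The third, 269 kb into the gene, was covered by the 3.2 kb region chr2:14794201-14797400. The 250 bases before its first site were 38.4% G and C with 2 CG dinucleotides, and those before the first start of the gene 73.2% with 30.

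Cacna2d1 encodes α2δ1, the outer subunit that carries the binding site of gabapentin and raises the number of channels at the membrane. Its position is chr5:15440509-15880329 on the plus strand, with a length of 440 kb. It had 37 regions, 8.41 per 100 kb (5.92 to 11.6), which covered 48.0 kb. The widest, chr5:15689801-15694000, spanned 4.2 kb. The regions stood apart, in 11 runs, and 35 of them were centred in the first 300 kb or upstream. A stretch of 122 kb, chr5:15739801-15861800, had no region. Its start lay in an unmarked gap of 1.6 kb, with a 1.4 kb region 109 bp upstream and a 3.2 kb region 1272 bp downstream of the last of its 3 sites.

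The 9 genes had 19 separate starts of protein-coding transcripts when sites within 2 kb of each other were taken as 1. Of these, 7 (36.8%) were covered by a region and 12 (63.2%) had a region within 2 kb, beside 32.1% and 58.7% of the 8597 such starts of long genes. Of the 12 starts with no region over them, 4 lay in a gap with a region within 2.5 kb on both sides, namely the second start of Cacna1d, the first and the second of Cacnb2 and the start of Cacna2d1. Over all starts, covered ones included, such starts were 4 of 19 (21.05%), beside 860 of 8597 (10%) at long genes. The gaps at the 4 starts named were 0.8, 2.4, 1.8 and 1.6 kb wide.

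**Figure D4:**
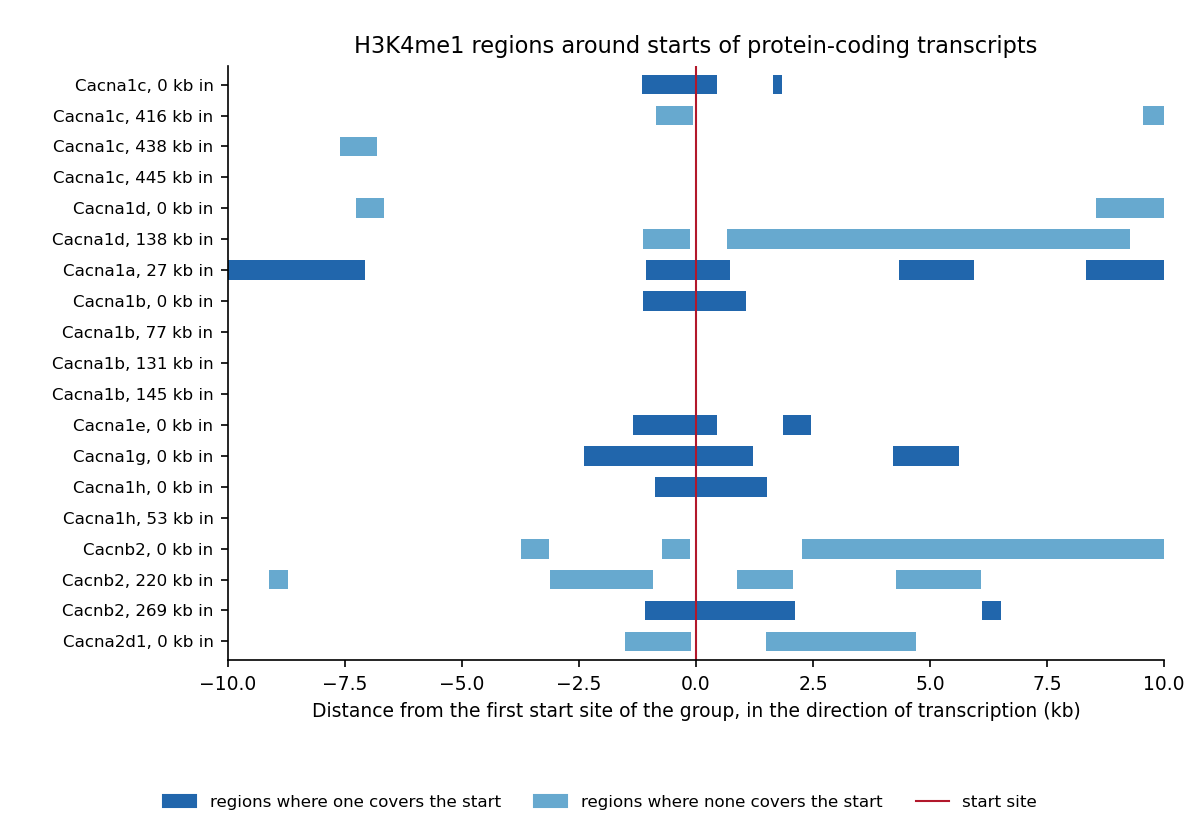
H3K4me1 regions within 10 kb of each of the 19 starts of protein-coding transcripts, with the distance in kb in the direction of transcription and the start as a red line; dark blue rows have a region over the start and light blue rows none. The Cacna1d start 138 kb into the gene, the first 2 Cacnb2 starts and the Cacna2d1 start lie in gaps between regions.

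Counted by gene over all annotated sites, a region lay over a start site in 7 of the 9 genes, the exceptions being Cacna1d and Cacna2d1. The share among long genes was 51.8% and among all protein-coding genes 39.1%. A region lay within 2 kb of a start site in 9 of the 9, and in 80.4% of long genes. A gene with more annotated sites has more places to be counted, and the 9 genes have 53, of which 21 were covered (39.6%), compared with 29.6% of the sites of long genes.

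The upstream sequences of 4 further starts are printed to set covered starts beside an uncovered one, each with its 250 bases 5′ to 3′ on the strand of the gene in mm9 and CG dinucleotides in capitals. The start of Cacna2d1 was not covered and the other 3 were.
Cacna2d1 start, chr5:15440259-15440508: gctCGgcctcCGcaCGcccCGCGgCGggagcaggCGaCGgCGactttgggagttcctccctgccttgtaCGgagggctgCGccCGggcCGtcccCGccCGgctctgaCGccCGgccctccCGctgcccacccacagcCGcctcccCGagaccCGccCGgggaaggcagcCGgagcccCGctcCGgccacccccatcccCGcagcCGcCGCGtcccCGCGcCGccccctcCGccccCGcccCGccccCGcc
Cacna1c first start, chr6:119146250-119146499: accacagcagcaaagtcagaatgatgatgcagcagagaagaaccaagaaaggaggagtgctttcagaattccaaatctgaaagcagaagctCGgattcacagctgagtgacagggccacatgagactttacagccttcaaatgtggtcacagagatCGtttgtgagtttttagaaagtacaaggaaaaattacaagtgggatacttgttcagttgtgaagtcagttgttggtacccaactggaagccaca
Cacna1a start of protein-coding transcripts, chr8:86939013-86939262: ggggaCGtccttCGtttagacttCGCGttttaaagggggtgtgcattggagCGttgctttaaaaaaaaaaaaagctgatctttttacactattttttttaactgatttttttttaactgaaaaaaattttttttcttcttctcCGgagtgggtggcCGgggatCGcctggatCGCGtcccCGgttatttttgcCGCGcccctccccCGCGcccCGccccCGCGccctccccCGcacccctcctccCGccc
Cacna1h start, chr17:25570729-25570978: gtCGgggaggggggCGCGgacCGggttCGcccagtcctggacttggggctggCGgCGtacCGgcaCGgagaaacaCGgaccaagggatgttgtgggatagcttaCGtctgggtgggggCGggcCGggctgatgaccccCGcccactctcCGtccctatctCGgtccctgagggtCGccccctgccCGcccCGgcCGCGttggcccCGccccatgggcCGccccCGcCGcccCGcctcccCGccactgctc

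The sequence before the Cacna2d1 start was 82.4% G and C with 36 CG dinucleotides, that of Cacna1h 75.2% with 27, that of Cacna1a 52.0% with 20 and that of Cacna1c 43.6% with 2. Covered starts were thus found with few and with many CG dinucleotides. Before the remaining covered starts, the third of Cacnb2 being given above, Cacna1b had 72.0% G and C and 29 CG dinucleotides, Cacna1g 75.2% and 27 and Cacna1e 52.0% and 6.

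**Figure D5:**
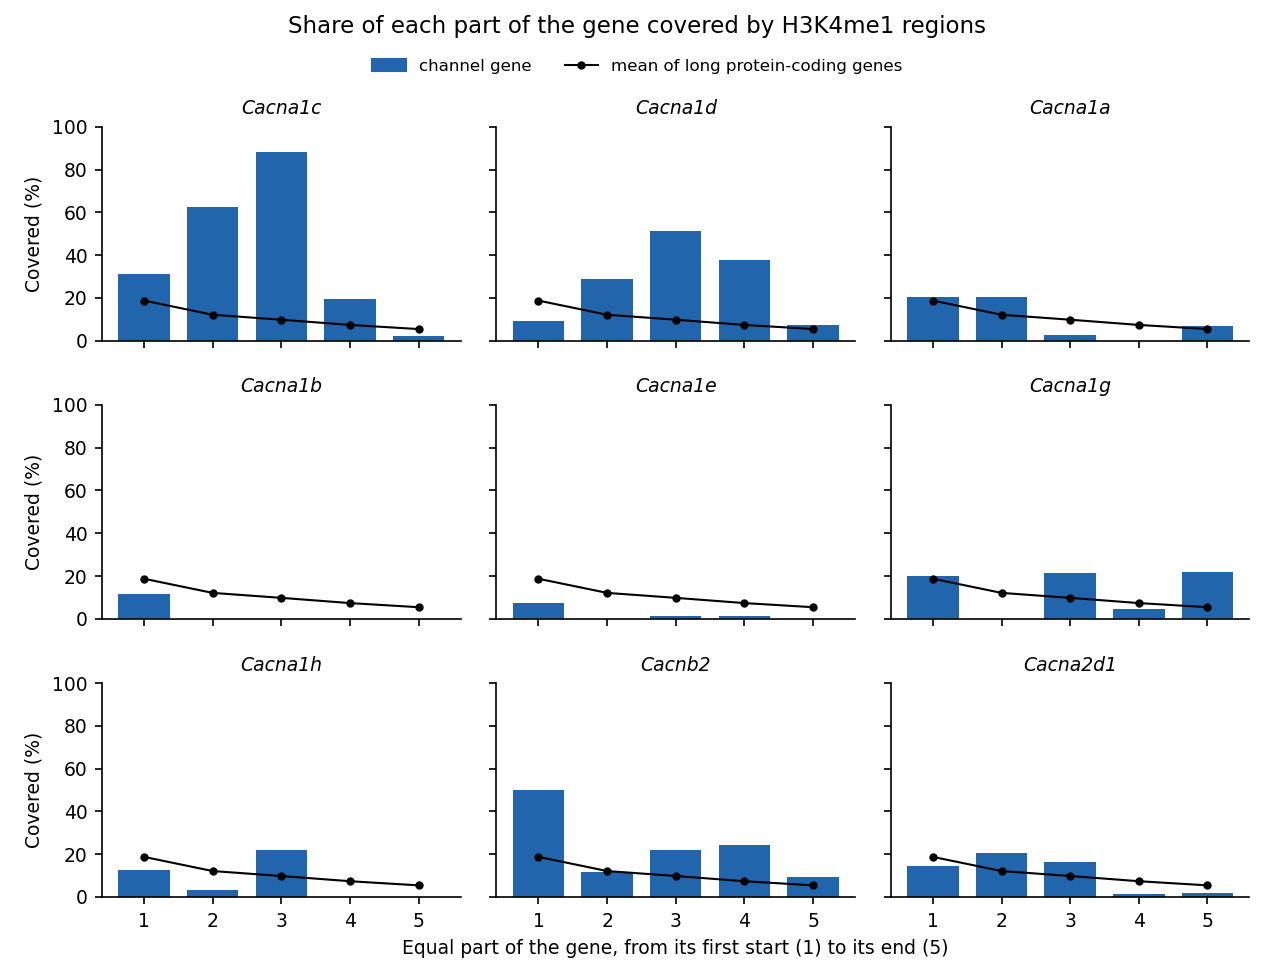
Percent of each of 5 equal parts of the gene, from its first start (1) to its end (5), that was covered by H3K4me1 regions (bars), with the mean over long protein-coding genes as a black line. Cacna1c rises to 88.2% in the third part and Cacna1d to 51.2%, while the mean of long genes falls from 18.7% to 5.45%.

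The closest start of any annotated gene belonged to the channel gene itself for 89 of the 196 regions, or 45.4% (38.3 to 52.7), and to it for 127 (64.8%) when protein-coding genes alone were used. At long genes these shares were 66.3% and 81.7% of 32929 regions. In Cacna1c, 18 of the 38 regions were closest to a U6 small nuclear RNA gene inside the channel gene and 12 to Dcp1b. In Cacna2d1, 29 of the 37 were closest to Gm17320, a 0.622 kb gene annotated as protein-coding inside it, and whether this annotation is a true gene was not examined. In Cacnb2, pseudogenes inside the gene were closest to 20 of the 42. In Cacna1d, 11 were closest to Chdh, the choline dehydrogenase gene that overlaps its end by 0.518 kb, and 5 to Dcp1a. With a limit of 100 kb, the closest start was the gene's own for 7 of the 38 regions of Cacna1c, 5 of 37 of Cacna2d1, 16 of 38 of Cacna1d and 21 of 42 of Cacnb2. It was so for 4 of 7 regions of Cacna1e, 7 of 10 of Cacna1g and 15 of 18 of Cacna1a, and for all 2 of Cacna1b and 4 of Cacna1h. Which gene a region acts on was not tested.

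The 17 other subunit genes of these channels each had at least 1 region, beside 76.4% of all protein-coding genes and, for the 9 that are long, 91.4% of long genes. Their median density was 4.94 regions per 100 kb, or 4.47 among the 9 that are long, and 3.62% of their summed length was covered. Densities above those of the 9 channel genes were found in short genes, with 32.5 regions per 100 kb in both Cacnb1 (21.5 kb) and Cacnb3 and 19.5 in Cacng6 (10.2 kb). These values include regions in the 20 kb flanks, divided by a short gene length. Only 2 of the 7 regions of Cacnb1, 2 of the 4 of Cacnb3 and 0 of the 2 of Cacng6 overlapped the gene itself. A region lay over a start site in 9 of the 17, namely Cacna1i, Cacnb1, Cacnb3, Cacnb4, Cacna2d2, Cacna2d3, Cacng2, Cacng3 and Cacng4, beside 39.1% of all protein-coding genes. Among the 9 long ones it was 7 of 9, the same count as for the channel genes, beside 51.8% of long genes. Cacnb3, the β3 subunit gene described in β-cells, was 33.7% covered over its 12.3 kb, and the 4.4 kb region chr15:98462201-98466600 lay over both of its sites. Cacna2d3, at 817 kb longer than any of the 9, had 9 regions, 1.10 per 100 kb (0.504 to 2.09), and was 1.25% covered. No region lay inside Cacna1f, the L-type pore of the retina, and Cacna1s, the L-type pore of skeletal muscle, had 0.895% of its length covered and no region over a start site.

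Rest is a repressor that silences neuronal genes, ion channel genes among them, in many but not all cells that are not neurons. Its element was searched on both strands as TTCAGCACC and GGACAGCGC with 2 bases between them and up to 4 mismatches over the 18 letters. In the 9 genes and the 20 kb around their start sites 27 matches were found, of which 6 lay in a region. None was found in Cacnb2 or Cacna2d1. For scale, regions covered 20.2% of the summed length of the 9 genes. Matches along other long genes were not counted. Around the midpoint of a region, a window of 1000 bp held a match in 3 of the 196 regions, or 1.53% (0.317 to 4.41), and in 1.18% of all regions. The match with the fewest mismatches and 4 matches that lay in regions are printed in their 60-base setting, on the strand of the match in mm9, with the compared letters in capitals.
Cacna1h intron, chr17:25537560-25537619, 1 mismatch, outside regions: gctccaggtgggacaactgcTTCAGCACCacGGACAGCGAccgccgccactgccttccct
Cacna1a intron, chr8:86995339-86995398, 2 mismatches, in a region: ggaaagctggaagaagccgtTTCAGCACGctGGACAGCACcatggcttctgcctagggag
Cacna1a intron, chr8:86978623-86978682, 3 mismatches, in a region: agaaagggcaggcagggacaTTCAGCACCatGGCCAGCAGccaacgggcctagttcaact
Cacna1b, chr2:24617583-24617642, 3 mismatches, in the region over the start: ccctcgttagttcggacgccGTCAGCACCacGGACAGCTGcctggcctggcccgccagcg
Cacna1e intron, chr1:156570798-156570857, 3 mismatches, in a region: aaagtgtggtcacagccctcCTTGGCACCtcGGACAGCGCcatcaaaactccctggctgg

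The Cacna1h match lay in intron 2, within the 31.2 kb stretch with no region, and no match of Cacna1h lay in a region. The Cacna1b and Cacna1e matches were 1.07 and 2.23 kb into their genes. A match is a description of the letters, and binding of Rest was not measured.

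The other motifs searched did not stand apart at the channel genes. CAGATG, an E-box bound by Neurod1, was found in 62.8% (55.6 to 69.5) of the windows and in 58.1% of all windows. TGACTCA, bound by AP-1, was found in 23.5% (17.7 to 30.04) and 21.2%, TAATTA, bound by homeodomain factors such as Pdx1, in 26.0% (20.03 to 32.8) and 27.4%, TGTTTAC, bound by Foxa factors, in 17.3% (12.3 to 23.4) and 17.7%, and CACGTG, bound by Myc, in 12.2% (8.01 to 17.7) and 14.2%. NF-κB was searched as a fixed sequence with no variant letters, so other forms of its motif were not counted. That sequence was found in 0 of 196 windows and in 0.381% of all windows. The count of 0 allows a share of up to 1.53% if 3 counts are taken as the limit. Its exact binomial interval was 0 to 1.86. The intervals of the channel regions included the share of the list for each of these motifs. In the 300 bases around first starts, CAGATG was found in 15.1% of all protein-coding genes and in none of the 9, TGACTCA in 4.42% and none, TAATTA in 4.83% and in Cacna1a alone (there at the start of a retained-intron transcript, 26.9 kb before its protein-coding starts), TGTTTAC in 3.11% and none, CACGTG in 7.79% and none, and TATAAA in 13.4% and in Cacna1d alone.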

How the data were processed

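H3K4me1 was measured by ChIP-seq in 1 library of cytokine treated mouse islets. The authors mapped reads to mm9 with Bowtie2 2.2.1 (submitters' processing notes) and called enriched regions with ChromHMM, whose version and settings are not given in the sources used here. They deposited the position of each region alone, in 3 columns with no count, signal or p-value, so depth is unknown. All positions fall on a 200 bp grid. Whether the list precedes the study's filter on low enrichment was not stated.

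Regions were joined to GENCODE M1 genes of the mm9 genome, as gene overlap or within 20 kb of any annotated start site. Counting was tested on simulated regions. Densities have exact Poisson and shares exact binomial intervals of 95%, which cover counting error only and treat regions as independent. With 1 library no test was made. All 9 genes and the 17 other subunit genes were to be named; these members and all lists were chosen with earlier results of these data known. Long genes are protein-coding genes of at least 50 kb on chromosomes 1 to 19 and X, and genes of like length lie within 1.5 times a gene's length. Sequences come from mm9. Sodium and potassium channel lists were compared by counts alone. RNA-seq values and untreated H3K4me1 were not analysed here. The work used pysam 0.24.0, scipy 1.17.1, pandas 2.3.3 and numpy 2.4.6 in Python 3.11.15.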

Additional observations from a re-analysis of the deposited data

How the results depend on the processing

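With 1 library no replicate could be left out. No paired analysis was possible because only 1 library was analysed. The 7 results were recomputed with other limits on region width and with merged regions, and those they apply to with other flanks, placement by midpoint, start sites of protein-coding transcripts, flanks in the length and assignment to the closest start site, and 43 of 48 values stayed within 1.5 times the reported count or density, or within the interval of the reported share. This limit is wide for counts of genes, since a count of 7 among 9 genes cannot rise past it. For the covered share, the interval took each 200 bp of gene length as independent. When a region was given only to the gene with the closest annotated start site within 100 kb, the count fell from 196 to 84 regions, of which 81 were among the 196 and 3 were not, the median density to 3.55 regions per 100 kb and the covered share of the 9 genes to 6.05%. Under this rule the U6 gene inside Cacna1c, Gm17320 inside Cacna2d1 and pseudogenes inside Cacnb2 took regions. With regions of at least 1000 bp the covered share was 19.2%. With 50 kb around start sites, 88.0% of the regions overlapped the gene. The number of channel genes above the median density of long genes was 7 under all alternatives except the closest start site, where it was 5. Densities of single genes moved by over 1.5 times in 8 cases. Under the closest start, Cacnb2 fell from 10.9 to 5.47 regions per 100 kb, Cacna1d from 8.42 to 3.55, Cacna2d1 from 8.41 to 1.14 and Cacna1c from 6.29 to 1.16. With regions of at least 1000 bp, Cacna2d1 fell to 4.55 and Cacna1e from 2.10 to 0.60. Per 100 kb of searched sequence, Cacna1g fell from 15.2 to 9.76 and Cacna1h from 6.72 to 4.22. The covered share was not recomputed with other flanks, midpoints or start sites, nor the start site counts with other flanks or the closest start, though these were also taken within 2 kb. Midpoint placement gave no value for start sites, since a midpoint does not lie over a single position. The list holds no depth, so a missing region can mean little mark, few reads or the calling threshold.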

Other observations

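Voltage-gated sodium channel α genes and genes whose symbols begin with Kcn (potassium channels of all kinds) were set beside the calcium channel genes. Among long genes, the 8 sodium channel genes had a median of 2.44 regions per 100 kb and the 35 potassium channel genes 3.16, beside 7.15 for the 9 calcium channel genes and 4.64 for long genes. Over genes of any length the medians were 3.49 for 9 sodium channel genes and 9.80 for 94 potassium channel genes, whose median length was 28.1 kb against 333 kb for the 9 calcium channel genes. A region lay over a start site in 3 of the 8 long sodium channel genes and 27 of the 35 long potassium channel genes, beside 51.8% of long genes. At least 20% was covered in 0 of the 8 and 4 of the 35, beside 17.1% of long genes.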
